A study of Mus musculus with 18 samples.

Results

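The Cyp26 genes Cyp26b1, Cyp26a1 and Cyp26c1 were followed across all 18 arrays of a study of nuclear receptor ligands in NaF cells, which are mouse mammary carcinoma cells. The genes were taken by symbol, each had 1 probe set, and they are 3 of the 22180 genes tested. The CYP26 enzymes are cytochrome P450s of the endoplasmic reticulum that hydroxylate all-trans retinoic acid and so start its breakdown. Retinoic acid enters the nucleus, binds heterodimers of a retinoic acid receptor (RAR) and a retinoid X receptor (RXR), and switches on genes that carry paired hexamers recognised by the dimer. Genes of the CYP26 family are themselves among the known targets of RAR in many tissues, which forms a feedback loop on the level of the ligand.

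Groups of 3 arrays each came from cells treated for 6 hours with all-trans retinoic acid (1 µM), TTNPB (1 µM), which is a synthetic RAR agonist, or GW1516 (1 µM), which is a synthetic agonist of the fatty acid receptor PPARδ. Their controls were 3 arrays of cells without ligand, and the cells of all 12 arrays had been kept for 48 hours beforehand in DMEM with 10% charcoal-treated FBS, from which small lipophilic molecules have been stripped. A further 3 arrays came from cells given palmitate, a saturated fatty acid, at 10 µM for 6 hours, and 3 from their controls, both in full medium with 10% untreated FBS. All cells are of 1 line, and the labels do not say whether replicates were separate cultures, so that p-values measure the spread between these arrays, which may be technical. The study's title places palmitate, retinoic acid signalling and the fatty acid-binding protein FABP5 together, and the comparisons ask what each ligand does to transcription.

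Values are log2 expression values as the authors deposited them. Array medians lay between 1.06 and 1.32 in the charcoal-serum set and between 0.47 and 0.55 in the full-medium set, so levels are not compared across the sera. GW1516 replicate 3 stood apart, with a mean distance of 0.231 between its probe sets and their group means, where the remaining arrays had 0.0816 to 0.145. As a check of the label, the keratin gene Krt18 (8.06 with retinoic acid and 7.99 in charcoal controls) and the E-cadherin gene Cdh1 (5.46 and 4.88) were well above background, whereas Krt8 (1.60 and 1.68) and Epcam (1.41 and 1.51), which also mark luminal epithelium, were near it. The mesenchymal gene Vim (10.6 in both groups) and the endothelial cadherin gene Cdh5 (8.73 and 8.90) were high, while the other endothelial markers Pecam1 and Kdr were below background in both. Background was set, per group, at the 95th percentile of the means of 1390 olfactory and vomeronasal receptor genes, and its lowest value among the charcoal-serum groups was 1.15 (retinoic acid) and its highest 1.31 (controls). In full medium it was 0.63 for palmitate and 0.59 for controls.

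Cyp26b1 (probe set 17468286, Entrez 232174) lies on mouse chromosome 6, from 84571414 to 84593908. Cyp26c1 and Cyp26a1 are neighbours on chromosome 19, at 37685112 to 37693320 and 37697738 to 37701536, with 4417 bases between them, and were read by probe sets 17359079 (Entrez 546726) and 17359088 (Entrez 13082). Positions are those of RefSeq on GRCm38.p6, and the sources used here do not give the build of the array design.

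The promoters of Cyp26b1 and Cyp26a1 are shown because Cyp26b1 rose with retinoic acid and carries no textbook RAR element there, while Cyp26a1 carries it and stayed below background, and the matching stretch of Rarb, the gene of RARβ, is shown beside them. Each promoter covers 250 bases before to 50 bases after a RefSeq start site on GRCm38.p6, chr6:84593761-84594060 (minus strand) for Cyp26b1 and chr19:37697558-37697857 (plus strand) for Cyp26a1, and the 29 bases of Rarb are chr14:16575507-16575535 (minus strand). These start sites do not sit at the 5′ end of the span given for each gene above but 98 bases inside it for Cyp26b1 and 70 bases inside it for Cyp26a1, while that of Rarb is an internal start. All are written 5′ to 3′ on the gene's strand, with capitals for a direct repeat of RAR hexamers with a spacer of 5 bases (DR5) and for TATAAA, a core promoter motif.
Cyp26b1: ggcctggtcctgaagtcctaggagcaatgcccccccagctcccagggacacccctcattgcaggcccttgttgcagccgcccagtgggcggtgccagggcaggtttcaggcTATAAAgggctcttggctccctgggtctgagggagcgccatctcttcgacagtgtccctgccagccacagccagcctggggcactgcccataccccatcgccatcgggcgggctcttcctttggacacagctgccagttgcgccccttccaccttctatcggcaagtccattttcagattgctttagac
Cyp26a1: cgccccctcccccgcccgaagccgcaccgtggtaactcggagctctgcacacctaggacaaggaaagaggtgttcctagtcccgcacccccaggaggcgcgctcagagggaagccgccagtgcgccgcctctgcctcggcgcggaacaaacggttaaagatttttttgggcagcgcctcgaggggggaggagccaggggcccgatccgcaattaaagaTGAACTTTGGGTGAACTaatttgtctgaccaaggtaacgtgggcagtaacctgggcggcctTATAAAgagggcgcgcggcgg
Rarb: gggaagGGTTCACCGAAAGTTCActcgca

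The hexamers searched, on both strands, were the consensus AGGTCA as well as the variants that begin with AGT (written AGTTCA), with GGT (written GGTTCA) or with GGG (written GGGTCA), and any of them could stand in either place of the repeat. In Cyp26a1 the repeat lies on the opposite strand from -32 to -16 relative to the start site, where it reads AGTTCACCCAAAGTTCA. Counted from the 5′ end of the Cyp26a1 span, the same bases are 39 to 55, inside the gene. In Rarb it reads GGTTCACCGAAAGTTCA from -53 to -37. The windows of Cyp26b1 and Cyp26c1 held no DR5, no repeat with a spacer of 2 or 1 bases and no lone hexamer. The start site used for Cyp26c1 lies 568 bases inside its span, so its window holds no sequence before the span. A DR5 was found in 32 of 32851 such windows of mouse genes (0.0974%), and a lone hexamer in 43.7%. TATAAA, searched on the gene's strand, was found at -139 in Cyp26b1 and at 30 in Cyp26a1, and in 8.32% of windows. Counted from the 5′ ends of the gene spans these are -41 and 100. These matches are letters in a window and not shown binding sites.

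Retinoic acid raised Cyp26b1 strongly. Its log2 values were 6.21, 6.06 and 5.83 with retinoic acid, against 3.41, 3.10 and 3.71 in charcoal controls, and the lowest treated array stood above the highest control. The means were 6.03 ± 0.19 with retinoic acid and 3.41 ± 0.30 in controls (SD, n = 3 each), a 6.15-fold rise with a 95% interval of 4.81 to 7.87 (log2 difference 2.62 ± 0.17 SE, limma, adjusted p = 4.88e-08 over all genes). No gene of the 22180 had a larger log2 rise in this comparison, and 12.9% of all genes likewise had every treated array above every control. A change in the level per cell and a change in the share of cells that express the gene cannot be told apart in such samples.

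Cyp26b1 was the 1 member of 3 that rose with retinoic acid, beside 3.82% of all genes that rose, and none fell, beside 1.47% that did. Of 6 luminal epithelial markers 5 were above background with retinoic acid and 4 in charcoal controls, and their summed level was 8.22 to 8.38 and 8.16 to 8.24. The marker counted with retinoic acid alone was Krt19, at 1.154, and it was higher in controls, at 1.29. Background was 1.150 with retinoic acid and 1.309 in controls, which moves such counts. Of 3 endothelial markers Cdh5 alone was above background in both, and the summed level was 8.695 to 8.79 with retinoic acid and 8.81 to 8.995 in controls. Of 6 fibroblast markers 5 were above background with retinoic acid and 3 in controls, with a summed level, mostly that of Vim, of 10.59 to 10.73 and 10.62 to 10.65. Those counted with retinoic acid alone were Col1a2 (1.211 with retinoic acid and 1.145 in controls) and Col3a1 (1.278 and 1.259). Both lay under the control background of 1.309 in either group. In the same list Pdgfra, a growth factor receptor gene, averaged 5.655 with retinoic acid, 5.225 with TTNPB and 5.32 with GW1516, against 4.88 in controls. None of these markers was at 0, and their part in the result was not tested.

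TTNPB, at the same dose and time, left Cyp26b1 much closer to its control. The values were 4.15, 3.64 and 4.25 with TTNPB, against 3.41, 3.10 and 3.71 in charcoal controls. TTNPB replicates 1 and 3 lay above every control, and replicate 2 lay below control replicate 3. The mean was 4.01 ± 0.33 with TTNPB and 3.41 ± 0.30 in controls (SD, n = 3 each), a log2 difference of 0.60 ± 0.17 (SE, 95% interval 0.25 to 0.96) that did not pass over all genes (limma, adjusted p = 0.0969). On a linear scale the interval runs from 1.19-fold to 1.94-fold. None of the 3 members passed, where 1.26% of all genes did, and Cyp26b1 had an unadjusted p = 0.00216. The call rested on TTNPB replicate 2, without which the difference was 0.79 (adjusted p = 0.0368), and after quantile normalization within each serum it was 0.59 (adjusted p = 0.04997). Over all alternatives its adjusted p ranged from 0.0368 to 0.342. The summed level of luminal markers was 8.39 to 8.64 with TTNPB and 8.16 to 8.24 in controls, and that of endothelial markers 8.425 to 8.51 and 8.81 to 8.995, and their part was not tested.

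GW1516 gave Cyp26b1 values of 3.34, 3.53 and 3.38, against 3.41, 3.10 and 3.71 in charcoal controls, and the GW1516 arrays all fell within the range of the controls. The means were 3.41 ± 0.10 with GW1516 and 3.41 ± 0.30 in controls (SD, n = 3 each). The log2 difference was 0.01 ± 0.17 (SE, limma, adjusted p = 0.991), and its interval, 0.785-fold to 1.29-fold, holds neither the rise seen with retinoic acid nor a 1.5-fold change. Without GW1516 replicate 3, the array that stood apart, the difference was 0.03 (adjusted p = 0.96). The summed level of endothelial markers was 7.285 to 8.75 with GW1516 and 8.81 to 8.995 in controls, and its part was not tested. None of the 3 members passed, where 2.57% of all genes did, and none had an unadjusted p under 0.05.

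In full medium, Cyp26b1 stood at 2.12, 2.09 and 2.04 with palmitate, against 2.09, 1.96 and 2.07 in full-medium controls, and the groups overlapped. The means were 2.08 ± 0.04 with palmitate and 2.04 ± 0.07 in controls (SD, n = 3 each), both above the background of 0.63 and 0.59. The log2 difference was 0.04 ± 0.17 (SE, limma, adjusted p = 1), with an interval of 0.804-fold to 1.32-fold. None of the 3 members passed, beside 0.681% of all genes, and none had an unadjusted p under 0.05. The summed level of luminal markers was 8.41 to 8.495 with palmitate and 8.16 to 8.40 in controls. That of endothelial markers was 6.91 to 7.61 and 7.71 to 7.90, and their part was not tested.

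**Figure D1:**
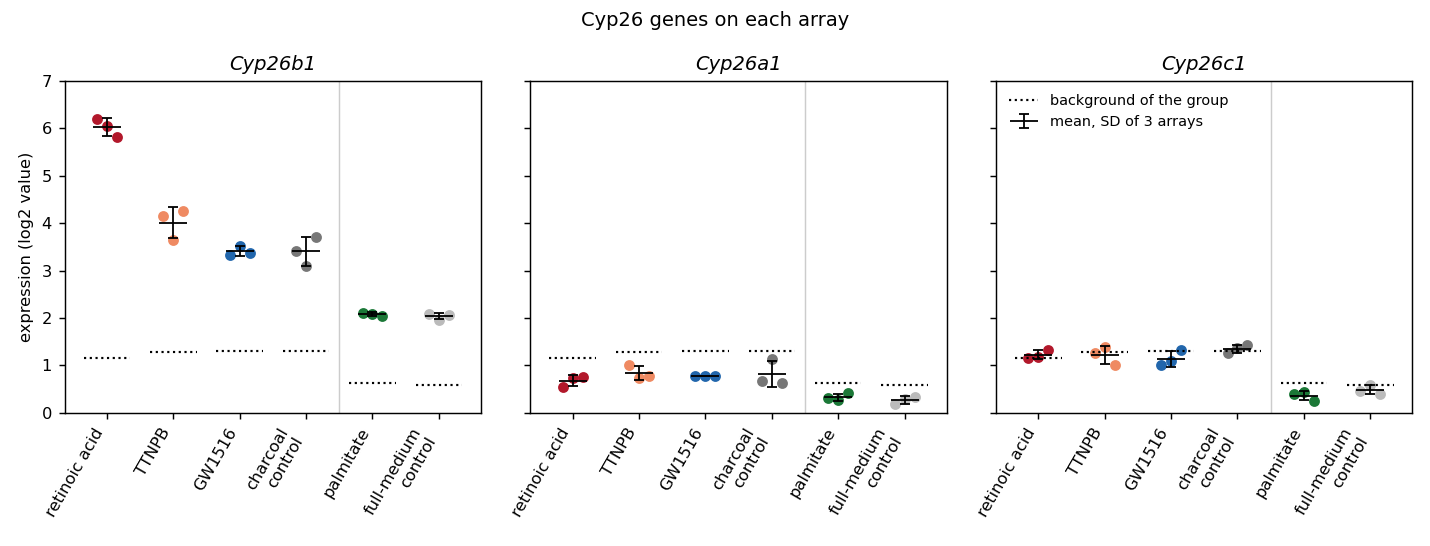
Log2 expression values of Cyp26b1, Cyp26a1 and Cyp26c1 on each of 18 arrays, by group; points are arrays, bars are the mean and SD of 3 arrays, dotted lines are the background of each group, and the grey line parts the charcoal-serum groups from the full-medium groups. The retinoic acid arrays of Cyp26b1 lie between 5.83 and 6.21, above all other charcoal-serum arrays, while every Cyp26a1 value lies under background.

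The ligands were also set against one another in the 3 pairs that share dose, time and serum. Retinoic acid and TTNPB are both carboxylic acids that bind RAR, and benzene rings in TTNPB stand in for much of the conjugated chain of retinoic acid. Between these compounds Cyp26b1 differed by 2.02 ± 0.17 on the log2 scale (SE, 95% interval 1.66 to 2.37), being 4.05-fold higher with retinoic acid (limma, adjusted p = 1.13e-05). No gene had a smaller p-value or a larger difference upward in this comparison, and 1 of 3 members passed, beside 0.153% of all genes (0.108% counting those higher with retinoic acid). All 3 retinoic acid arrays (5.83 to 6.21) were above all 3 TTNPB arrays (3.64 to 4.25), as for 9.64% of all genes.

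The difference between retinoic acid and GW1516 was 2.61 ± 0.17 (SE, 95% interval 2.26 to 2.97), or 6.12-fold (limma, adjusted p = 7.65e-08). Cyp26b1 was again the 1 member of 3 that passed, beside 0.352% of all genes (0.284% counting those higher with retinoic acid). Every retinoic acid array was above every GW1516 array, as for 6.28% of all genes. With TTNPB it was higher than with GW1516 by 0.60 ± 0.17 (SE, 95% interval 0.24 to 0.95). That difference did not pass over all genes (limma, adjusted p = 0.264, unadjusted p = 0.00235), although the lowest TTNPB array, at 3.64, was above the highest GW1516 array, at 3.53, as for 5.94% of all genes. Of 3 members none passed there, beside 0.0676% of all genes. In charcoal serum the order of the Cyp26b1 means was thus retinoic acid, TTNPB, GW1516 and control. Retinoic acid differed from each of the others, TTNPB did not pass against GW1516 or the control, and the lowest pair, GW1516 and the control, differed by less than the spread of either group.

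**Figure D2:**
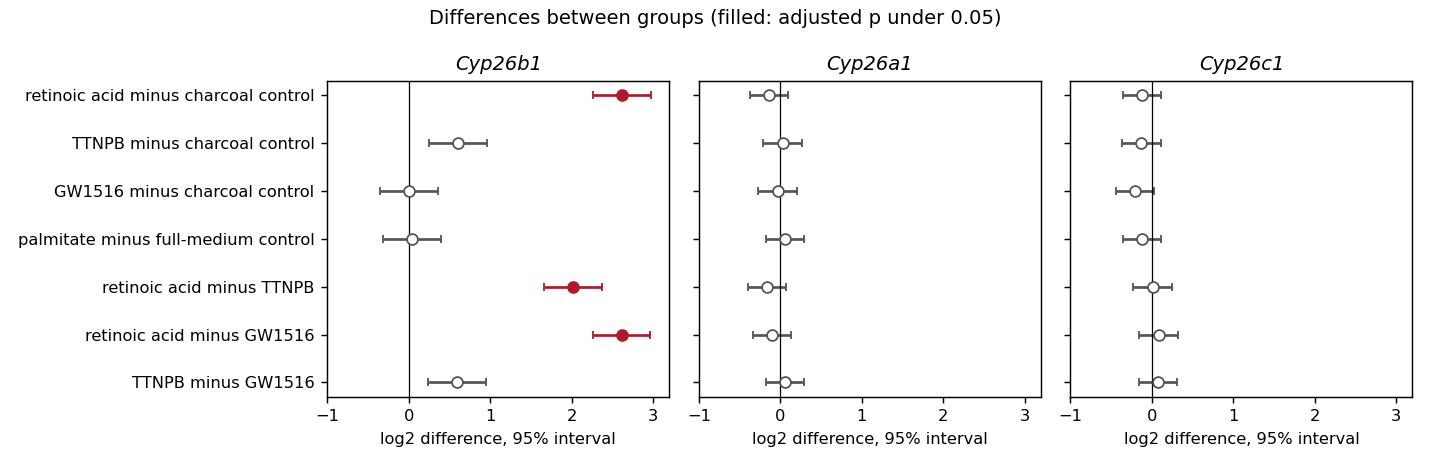
Differences between groups on the log2 scale for each Cyp26 gene, with 95% intervals from the limma fit to all 18 arrays; filled points have an adjusted p under 0.05 over all genes. Cyp26b1 stands farthest from 0 in the 3 comparisons with retinoic acid on top, at 2.62, 2.02 and 2.61, and the intervals of Cyp26a1 and Cyp26c1 all include 0.

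Cyp26a1, the family member most often described as induced by retinoic acid, was not measurable in any group. Its values were 0.54, 0.73 and 0.76 with retinoic acid, 1.01, 0.73 and 0.79 with TTNPB and 0.78, 0.78 and 0.78 with GW1516, against 0.67, 1.13 and 0.64 in charcoal controls. All 12 lie under the background of their group, the nearest being control replicate 2. The gene with the DR5 in its promoter thus gave no level to compare, and the log2 difference between retinoic acid and control was -0.14 ± 0.11 (SE, 95% interval -0.37 to 0.10, limma, adjusted p = 0.626). The difference was 0.03 ± 0.11 with TTNPB (95% interval -0.21 to 0.26, adjusted p = 0.972) and -0.03 ± 0.11 with GW1516 (-0.27 to 0.20, adjusted p = 0.927). Between ligands it was -0.17 for retinoic acid minus TTNPB, -0.10 for retinoic acid minus GW1516 and 0.06 for TTNPB minus GW1516, and none passed (limma, no unadjusted p under 0.05). In full medium the values were 0.31, 0.27 and 0.41 with palmitate, against 0.18, 0.30 and 0.34 in controls, also under background, and the difference was 0.06 ± 0.11 (SE, adjusted p = 1).

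Cyp26c1, the third family member, lay near background. Its values were 1.17, 1.18 and 1.34 with retinoic acid, 1.26, 1.39 and 1.01 with TTNPB and 1.00, 1.10 and 1.32 with GW1516, against 1.26, 1.36 and 1.43 in charcoal controls. The group mean passed background with retinoic acid (1.23, background 1.15) and in controls (1.35, background 1.31), by under 0.1 in each case, and in no other group. The groups overlapped, and the log2 difference was -0.12 ± 0.11 for retinoic acid (SE, limma, adjusted p = 0.68), -0.13 ± 0.11 for TTNPB (adjusted p = 0.788) and -0.21 ± 0.11 for GW1516 (adjusted p = 0.401). Between ligands it was 0.01 for retinoic acid minus TTNPB, 0.09 for retinoic acid minus GW1516 and 0.08 for TTNPB minus GW1516, and none passed (limma, no unadjusted p under 0.05). With palmitate the values were 0.40, 0.44 and 0.25, against 0.47, 0.60 and 0.40 in full-medium controls, a difference of -0.12 ± 0.11 (SE, adjusted p = 1).

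Cyp26b1 was the CYP26 gene with a level above background in all 6 groups, and so in both sera. Over the 12 charcoal-serum arrays the Pearson correlation with Cyp26b1 was -0.416 for Cyp26a1 and -0.117 for Cyp26c1, a description over arrays that share treatments, for genes at or near background.

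Other known RAR targets were compared with Cyp26b1 by their own values. Of 12 listed targets 10 were measured and 7 were above background in retinoic acid or control cells. Of the 10, 4 rose and none fell with retinoic acid (5.29% of all genes were called in either direction), and their median log2 difference was 0.24, against -0.03 over all genes. With TTNPB 1 of the 10 rose (0.618% of all genes rose) and the median was 0.16 (-0.0040 over all genes). With GW1516 1 rose (1.89% of all genes rose) and the median was 0.05 (-0.010 over all genes). Such counts do not measure the size of a difference. The listed target Plat, counted with retinoic acid alone, differed by 0.78, 0.78 and 0.76 with retinoic acid, TTNPB and GW1516. With palmitate none of the 10 passed (limma, 1 at an unadjusted p under 0.05), where 0.681% of all genes did. In palmitate or full-medium control cells 3 of the 10 were above background, so this count says little about a response.

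Rarb, whose product is a receptor for the ligand, had 4.28, 4.07 and 4.21 with retinoic acid and 3.29, 3.48 and 3.82 with TTNPB, against 3.37, 2.77 and 2.89 in charcoal controls. The retinoic acid arrays lay above all controls, and the TTNPB arrays overlapped with them. Rarb rose 2.26-fold with retinoic acid (log2 difference 1.18 ± 0.17 SE, limma, adjusted p = 0.000448), and the difference was 0.52 ± 0.17 with TTNPB (adjusted p = 0.179) and 0.16 ± 0.17 with GW1516 (adjusted p = 0.721). In full medium it was under background, at 0.28 with palmitate and 0.22 in controls. Between retinoic acid and TTNPB, Rarb differed by 0.65 ± 0.17 (SE), which did not pass (adjusted p = 0.221).

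Nrip1, a corepressor gene, had 4.89, 4.91 and 4.52 with retinoic acid, 3.71, 4.07 and 3.64 with TTNPB and 3.81, 3.82 and 3.79 with GW1516, against 3.31, 3.19 and 3.63 in charcoal controls. It rose with retinoic acid by 1.39 ± 0.16 (SE, limma, adjusted p = 5.62e-05), and differed by 0.43 ± 0.16 with TTNPB (adjusted p = 0.273) and by 0.43 ± 0.16 with GW1516 (adjusted p = 0.197). For Cyp26b1 the TTNPB and GW1516 differences from control were 0.60 and 0.01. These differences share their control arrays. Between retinoic acid and TTNPB, Nrip1 differed by 0.96 (adjusted p = 0.0136), a call lost without retinoic acid replicate 1 or 2 (0.121 and 0.122) or TTNPB replicate 1 or 3 (0.0842 and 0.0784).

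Tgm2, the gene of tissue transglutaminase, had the smallest standard error of the 4 targets that rose, with values of 8.03, 8.20 and 8.10 with retinoic acid, 7.80, 7.92 and 7.92 with TTNPB and 7.68, 7.87 and 7.73 with GW1516, against 7.40, 7.33 and 7.39 in charcoal controls. Each treated group stood wholly above the controls. It rose by 0.73 ± 0.08 with retinoic acid (SE, limma, adjusted p = 2.81e-05), by 0.50 ± 0.08 with TTNPB (adjusted p = 0.00277) and by 0.38 ± 0.08 with GW1516 (adjusted p = 0.0154; 0.0674 without charcoal control replicate 2, and 0.335 in a fit of the 6 arrays alone, and 0.0778 with arrays centred). In full medium Tgm2 had 7.57, 7.70 and 7.60 with palmitate, against 7.24, 7.34 and 7.24 in controls, with no overlap, and the difference of 0.35 did not pass (adjusted p = 0.051). Plat, which encodes tissue plasminogen activator, rose with retinoic acid by 0.78 ± 0.22 (adjusted p = 0.0432) and had differences of 0.78 with TTNPB (adjusted p = 0.0953) and 0.76 with GW1516 (adjusted p = 0.0719). With each of these ligands its arrays lay above all controls, and with TTNPB and with GW1516 it passed in 3 of 17 alternatives. The call of Plat with retinoic acid was lost without charcoal control replicate 1, 2 or 3 (0.152, 0.108 and 0.0658) and without retinoic acid replicate 1 or 2 (0.213 and 0.17), and with arrays centred on their medians (0.0718). The other 2 classical targets named here, Dhrs3, which encodes a retinaldehyde reductase, and Crabp2, which encodes a carrier that delivers retinoic acid to RAR, did not pass with retinoic acid. Dhrs3 averaged 1.05 with retinoic acid and 0.92 in controls, under background in both, and Crabp2 averaged 1.28 and 1.39, just above background.

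Of the 6 RAR and RXR genes, 1 rose with retinoic acid (Rarb; 3.82% of all genes rose) and none passed with TTNPB (limma, 1 at an unadjusted p under 0.05; 1.26% of all genes passed). With GW1516 1 rose (1.89% of all genes), and with palmitate 1 (0.144% of all genes). The rise with GW1516 was that of Rara, the gene of RARα (log2 difference 0.63 ± 0.16 SE, adjusted p = 0.0424), and it was lost without charcoal control replicates 1, 2 or 3 (0.0762, 0.141 and 0.105) or GW1516 replicates 1 or 3 (0.0585 and 0.11), and in 5 of 11 other settings (adjusted p up to 0.333, on the 6 arrays alone). The rise with palmitate was that of Rxrb, the gene of RXRβ (0.66 ± 0.14, adjusted p = 0.0309), and it was lost without full-medium control replicate 2 or 3 (0.113 and 0.202), without palmitate replicate 1, 2 or 3 (0.124, 0.0832 and 0.0579) and in 3 of 11 other settings (adjusted p up to 0.193, on the 6 arrays alone). Palmitate was given at another dose and in another serum, and no test was made between it and the other ligands.

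Genes that make or carry the substrate of the CYP26 enzymes were set against the shares of all genes that passed, 5.29% with retinoic acid, 1.26% with TTNPB, 2.57% with GW1516 and 0.681% with palmitate. Of 18 measured genes of retinol handling and retinoic acid synthesis, 6 were above background in retinoic acid or control cells and none passed with any ligand or palmitate (limma, 2 with retinoic acid and 1 each with TTNPB, GW1516 and palmitate at an unadjusted p under 0.05). With so few genes a count of 0 lies near those shares, and over the alternatives up to 2 passed with retinoic acid (on the 6 arrays alone), 1 with GW1516 (without GW1516 replicate 1, or with dim genes left out) and 1 with palmitate (array weights). The differences with retinoic acid ran from -0.24 to 0.44, with a median of -0.01. Of the retinaldehyde dehydrogenase genes, whose products form retinoic acid, Aldh1a1 was well expressed, at 4.94, 4.71 and 4.59 with retinoic acid, against 4.97, 5.08 and 4.78 in charcoal controls, which overlapped (log2 difference -0.20 ± 0.28 SE, adjusted p = 0.812). Aldh1a2 and Aldh1a3 were under background in retinoic acid and control cells, at 0.93 and 0.89 with retinoic acid and 0.92 and 0.94 in controls. Among the 3 carrier genes none passed with any ligand or palmitate (limma), and none had an unadjusted p under 0.05. Fabp5, which encodes the carrier that can take retinoic acid to PPARδ, had 3.95, 4.22 and 4.16 with retinoic acid, against 4.08, 4.50 and 4.19 in charcoal controls, and the groups overlapped (log2 difference -0.15 ± 0.18 SE, adjusted p = 0.775).

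P450 enzymes of the endoplasmic reticulum need haem and electrons from redox partners. Of 10 measured genes of haem synthesis and of the cytochrome b5 system, all 10 were above background and none passed with retinoic acid (limma, none at an unadjusted p under 0.05). The differences ran from -0.25 to 0.23, with a median of -0.02. With TTNPB, GW1516 and palmitate none passed either, with 1, none and 1 at an unadjusted p under 0.05. These counts of 0 of 10 lie near the shares of all genes (5.29%, 1.26%, 2.57% and 0.681%). Of 95 other genes of the cytochrome P450 family, 21 were above background in retinoic acid or control cells, and 1 rose with retinoic acid, where 3.82% of all genes rose. That gene was Cyp2c55, at 6.59, 6.79 and 6.82 with retinoic acid, against 6.16, 6.34 and 6.12 in charcoal controls, with no overlap. It rose by 0.53 ± 0.13 (SE, limma, adjusted p = 0.0265), and lost the call without charcoal control replicate 1 or 3 (0.0889 and 0.0925) and without retinoic acid replicate 2 or 3 (0.112 and 0.0936), and with arrays centred (0.0561). None of the 95 passed with TTNPB, GW1516 or palmitate (1, 9 and 3 at an unadjusted p under 0.05), where 1.26%, 2.57% and 0.681% of all genes did. With GW1516 1 of them passed without charcoal control replicate 3 or without GW1516 replicate 1, and up to 2 over all alternatives (array weights). The 95 had a median of -0.05 and a highest value of 0.53 with retinoic acid, beside the 2.62 of Cyp26b1.

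**Figure D3:**
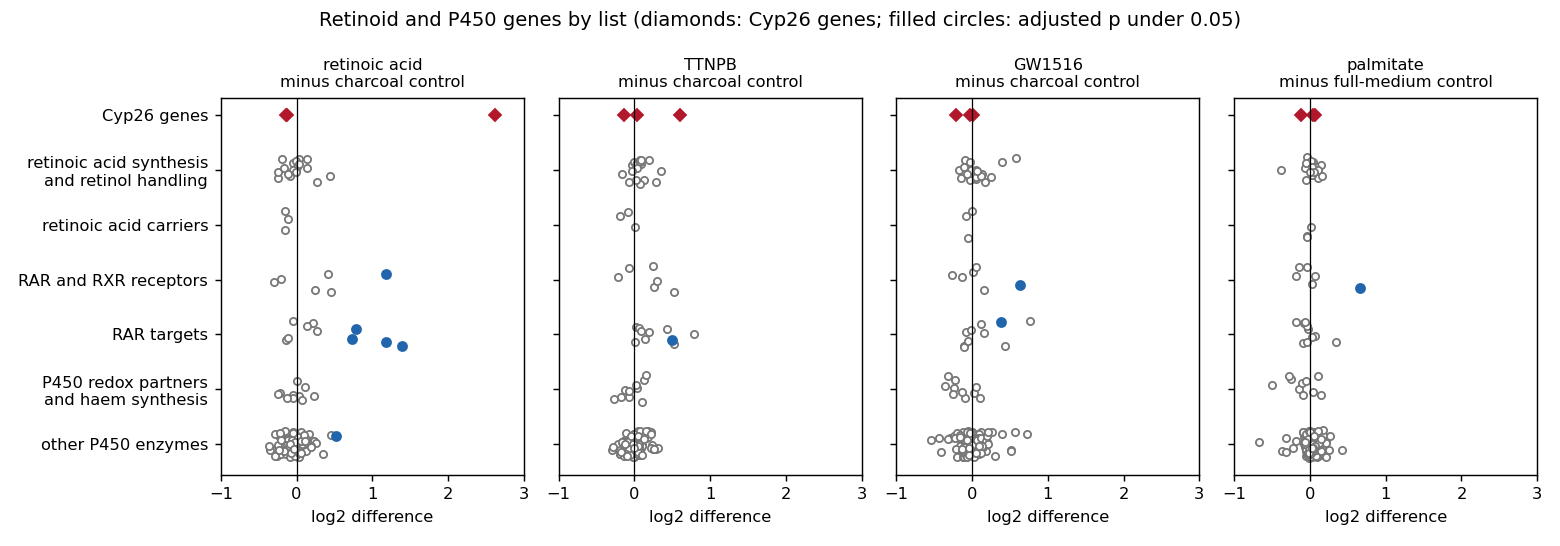
Log2 differences of the Cyp26 genes (diamonds) and of the members of 6 gene lists (circles, spread up and down for sight only) for each ligand and palmitate against its control in the same serum; filled circles have an adjusted p under 0.05. With retinoic acid Cyp26b1 lies at 2.62, apart from every listed gene, the highest of which is Nrip1 at 1.39.

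The promoter search was set beside the expression values. Genes with a DR5 in a window numbered 31, of which 13 were measured, and 1 of the 13, Rarb, rose with retinoic acid, beside 3.82% of all genes. Only Rarb, Blvrb, Syndig1 and Gm14133 had means above background with retinoic acid (4.19, 3.88, 1.43 and 1.22, background 1.15). The others were under background with retinoic acid and in charcoal controls, and gave no level to compare. None of the 13 passed with TTNPB, GW1516 or palmitate, where 1.26%, 2.57% and 0.681% of all genes did. With so few genes, that none passed lies near those shares. Cyp26b1, with no hexamer in its window, had the largest rise, and no reading about RAR binding follows from a window of 300 bases.

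The genes whose values ran closest to those of Cyp26b1 over the 12 charcoal-serum arrays were Fzd5, a receptor gene for Wnt ligands (Pearson r = 0.956), Clstn1, a calsyntenin gene (0.955), Mlxip, which encodes a glucose-responsive transcription factor (0.944), Dzip1 (0.943) and Gabrp, a subunit gene of the GABA-A receptor (0.942). These correlations describe 12 arrays that share treatments in 4 groups. Cyp26b1 is highest with retinoic acid on these arrays, so a rise of the 5 genes with it follows largely from their choice. The TTNPB, GW1516 and control arrays entered the choice as well. The p-values of the 5 genes for retinoic acid, TTNPB and GW1516 are thus no separate support. None of the 5 was among the 5 closest by Spearman correlation.

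Fzd5 had 5.63, 5.51 and 5.50 with retinoic acid, 4.49, 4.64 and 4.71 with TTNPB and 4.28, 4.15 and 3.73 with GW1516, against 3.93, 3.84 and 4.12 in charcoal controls. It rose with retinoic acid by 1.59 (limma, adjusted p = 0.000121), and the TTNPB arrays, all above the controls, gave a difference of 0.65 (adjusted p = 0.15). Gabrp was the tightest of the 5, at 10.65, 10.63 and 10.68 with retinoic acid, 9.96, 9.95 and 10.05 with TTNPB and 9.64, 9.68 and 9.72 with GW1516, against 9.39, 9.47 and 9.36 in charcoal controls. It rose by 1.25 with retinoic acid (adjusted p = 1.71e-09), by 0.58 with TTNPB (adjusted p = 7.74e-05) and by 0.27 with GW1516 (adjusted p = 0.0258), the last being lost without charcoal control replicate 1 or 3 (0.0869 and 0.0879), on the 6 arrays alone (0.366) and with arrays centred (0.0853). Dzip1, Mlxip and Clstn1 rose with retinoic acid by 1.55, 0.78 and 0.59, and did not pass with TTNPB (differences of 0.42, 0.26 and 0.26). With palmitate none of the 5 passed (differences of -0.31 to -0.08).

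**Figure D4:**
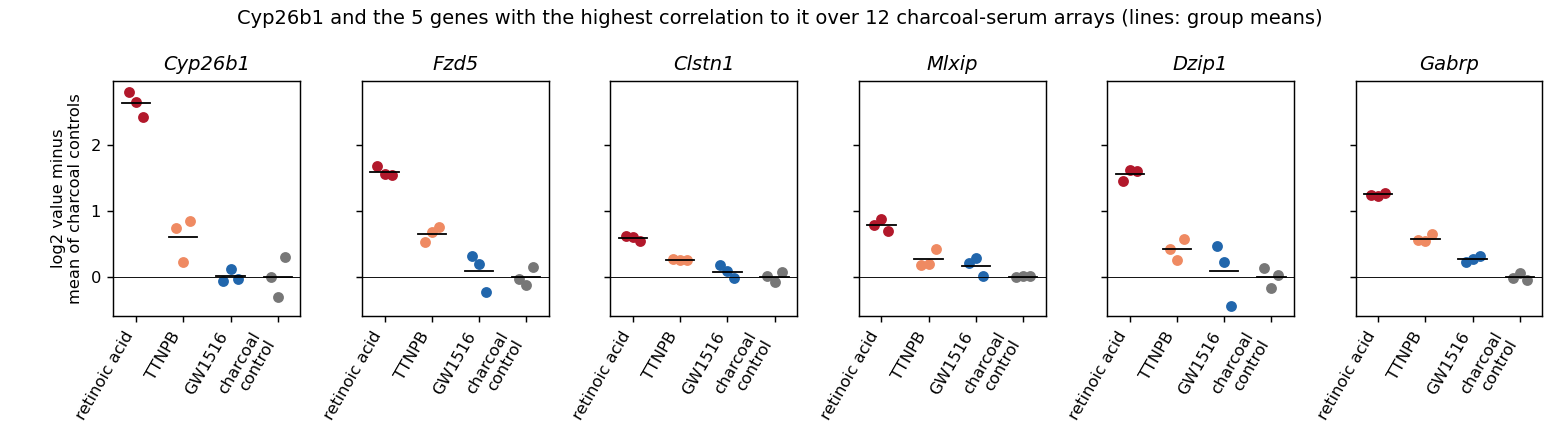
Log2 values minus the mean of the charcoal controls for Cyp26b1 and the 5 genes with the highest Pearson correlation to it, on 12 charcoal-serum arrays; points are arrays and lines are group means. In each panel the retinoic acid arrays lie highest and the TTNPB mean lies between them and the controls, a pattern that the choice of the 5 genes favours.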

How the data were processed

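The arrays were hybridised with biotinylated cRNA (Affymetrix IVT labelling), per the labels' protocols. The table deposited by the authors holds log2 values of 41345 probe sets, 1 for each array. The submitters' processing notes name Partek; the sources used here do not give its version or how background, normalization and summary were handled. The log2 scale was read from the range of values. No counting depth exists for arrays, and their number limits the precision. Identical values (within 1e-06) made up at most 0.469% of probe sets between replicate arrays in charcoal serum and 2.55% in full medium.

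Of the probe sets, 23521 carried 1 gene symbol, 1814 several and 16010 none. Symbols were updated by Entrez number through RefSeq (GRCm38.p6) for 23328, and the probe set with the highest mean stood for a gene. Por and some other listed genes were not analysed here. In R 4.3.3, limma 3.58.1 fitted the means of 6 groups over the 18 arrays (trended variances, 12 residual degrees of freedom). P-values are 2-sided, adjusted by Benjamini-Hochberg over the 22180 genes of a comparison, with a threshold of 0.05. The code was tested on simulated data. Promoter sequences are RefSeq's.

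The members and gene lists were chosen with earlier results of these data known. The naming rule took the members, up to 4 called genes per list and comparison, a set of retinoid genes whatever their p (Rarb, Crabp2, Fabp5, Dhrs3 and the Aldh1a genes) and the 5 genes most correlated with Cyp26b1. Values of Rarb, Nrip1, Tgm2, Plat and the 5 correlated genes are also given where a comparison did not call them, a choice made after their values were seen. The DR5 search and the neighbouring genes were added likewise.

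Alternatives were fits on fewer arrays, a replicate block, other variance models and scalings, array weights, filters and each array left out.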

Additional observations from a re-analysis of the deposited data

How the results depend on the processing

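The retinoic acid rise of Cyp26b1, and its differences between retinoic acid and TTNPB or GW1516, kept direction and call in all 17 alternatives each, 11 settings and 6 single arrays left out. Without single arrays they ranged from 2.47 to 2.77, from 1.83 to 2.14 and from 2.53 to 2.72. The TTNPB difference from control ranged from 0.45 to 0.79 and passed after quantile normalization (0.59) and without TTNPB replicate 2. Cyp26b1 with TTNPB against GW1516 ranged from 0.48 to 0.79, with GW1516 against control from -0.15 to 0.16, and with palmitate from 0.0017 to 0.13 (the highest after quantile normalization). Signs of uncalled differences turned for Cyp26b1 with GW1516 after quantile normalization (-0.051) and with array weights (-0.054), and with array weights for Cyp26a1 with GW1516 (0.045) and Cyp26c1 with retinoic acid against TTNPB (-0.013).

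For Cyp26a1, the ranges without single arrays were -0.22 to 0.022 for retinoic acid, where leaving out control replicate 2 turned the sign, -0.058 to 0.19 for TTNPB, -0.12 to 0.13 for GW1516 and -0.024 to 0.12 for TTNPB against GW1516. For Cyp26c1, they were -0.095 to 0.094 for retinoic acid against TTNPB and -0.0081 to 0.18 for TTNPB against GW1516. The cause was not tested. Leaving out dim genes removed Cyp26a1. With the 90th percentile as background Cyp26c1 stood above it in 3 groups, against 2.

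Counts over all genes ranged over the alternatives from 583 to 2014 for retinoic acid (1174 as reported), 101 to 622 for TTNPB (279), 3 to 1122 for GW1516 (570), 1 to 661 for palmitate (151), 9 to 249 for retinoic acid against TTNPB (34), 2 to 195 for retinoic acid against GW1516 (78) and 0 to 66 for TTNPB against GW1516 (15). The low ends for GW1516, palmitate and both GW1516 pairs came from fits on the 6 arrays alone.

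Same-numbered replicates correlated between -0.28 and 0.212 in their deviations from group means. Differently numbered arrays were not compared, so these values cannot tell whether the numbers pair the arrays. With the replicate block the Cyp26b1 values were unchanged at 2.62, 0.60, 0.01 and 0.04 for retinoic acid, TTNPB, GW1516 and palmitate, no Cyp26 call changed, and the counts over all genes were 1031, 198, 498 and 112.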

Other observations

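The genomic neighbours of the Cyp26 genes, chosen after the data were seen as the nearest 2 measured protein-coding genes on each side, include a pair of related genes of the exocyst, a complex that tethers vesicles at the cell membrane. Exoc6b lies 24577 bases from Cyp26b1, and Exoc6 lies 1059 bases from Cyp26c1. Exoc6b averaged 8.62 with retinoic acid and 8.34 in charcoal controls (log2 difference 0.27 ± 0.15 SE, limma, adjusted p = 0.391), and Exoc6 averaged 6.67 and 6.11 (0.56 ± 0.19, adjusted p = 0.114). With palmitate Exoc6b fell (log2 difference -0.67 ± 0.15 SE, adjusted p = 0.045), and Exoc6 differed by -0.58 ± 0.19 (adjusted p = 0.292). The call of Exoc6b was lost without full-medium control replicate 2 or 3 (0.139 and 0.268) and without palmitate replicate 1, 2 or 3 (0.0542, 0.199 and 0.132), and in 5 of 11 other settings (adjusted p up to 0.234).

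Of the others, Cep55, a gene of the last step of cell division 353433 bases from Cyp26a1, rose with retinoic acid (0.77 ± 0.15, limma, adjusted p = 0.00516). Its arrays also lay above all controls with TTNPB (0.55, adjusted p = 0.0896), GW1516 (0.53, adjusted p = 0.0741) and palmitate (0.52, adjusted p = 0.187). Those differences did not pass, but did so in 3, 2 and 2 of 17 alternatives. Myof, a membrane repair gene, fell with palmitate (-0.58 ± 0.12, adjusted p = 0.0355; 0.158 and 0.151 without full-medium control replicates 2 and 3, and 0.0802 and 0.176 without palmitate replicates 1 and 2, and lost in 5 of 11 other settings, 1 of them the 1.5-fold minimum, with adjusted p up to 0.213). Dysf, Zfp638 and Spr, near Cyp26b1, and Hhex, near Cyp26a1, did not pass with any ligand or palmitate.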
